A study of Mus musculus with 4 samples.

Results

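The fibroblast growth factors (FGFs), the bone morphogenetic proteins (BMPs) and the transforming growth factor beta (TGF-beta) family, with their receptors, Smads and the antagonists Nog, Chrd and Grem1, were followed in the cerebellum of mice at postnatal day 7, in its anterior against its posterior lobe. The members were all array probes whose gene symbol names an FGF, an FGF receptor, a BMP, a growth differentiation factor (GDF), a TGF-beta, an activin or inhibin subunit, one of their receptors, a Smad or one of the 3 antagonists. These were 124 probes of 77 gene symbols, out of 45281 probes of 30854 symbols. Total RNA of untreated mice of the Swiss strain was measured with the Illumina array MouseWG-6 v2.0, on which a probe is a short DNA sequence carried by many beads and its signal is the mean brightness of those beads. There were 2 samples of the anterior lobe and 2 of the posterior lobe, with 1 array each, and both lobes came from mice of the same strain and age. The labels do not say whether the samples came from different animals or from pools, so the p-values measure the spread between these samples.

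FGFs bind receptor tyrosine kinases and switch on the MAP kinase cascade, which in turn induces its own feedback inhibitors. BMPs, activins and TGF-betas bind pairs of type I and type II receptor kinases, which phosphorylate Smad proteins that enter the nucleus, and secreted antagonists such as noggin and chordin bind BMPs before they reach a receptor. In the cerebellum these signals are known for the patterning of its primordium, for the start and the arrest of granule neuron progenitor proliferation and for the shaping of Bergmann glia.

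A probe was taken as well above background on an array when its detection score, which is 1 minus the detection p-value, was over 0.95, and it was tested when this held on at least 2 of the 4 arrays. Of the member probes 56 of 41 genes were tested, and 36 genes had no tested probe. Median intensities lay between 110.2 and 129.6 over the arrays, 46.5% to 47.6% of all probes were well above background on each, and between 55 and 57 member probes were. With 2 arrays a lobe, an exact two-sided permutation test cannot go below p = 0.33, so each test uses a spread that limma pools over the 21726 tested probes. The labelled tissue was checked against its markers. For granule neurons 9 of 11 genes on the array were tested, with summed intensities from 57034 to 68944, and for Purkinje cells 5 of 8 were tested, with sums from 69385 to 79278. The probes of Atoh1, Gli1, Calb1, Car8 and Pcp4 were not well above background on at least 2 arrays. Intensities are given here as deposited, before normalization. The log2 differences and the overlap of lobes come from values after normalization of the arrays to a common distribution.

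The signals that differed most between the lobes were ligands and one receptor. Bmp4, Fgf7, Fgf1 and the activin receptor Acvr1b were lower in the posterior lobe by 1.36-fold to 1.51-fold, and Bmp7 was 1.53-fold higher there. The study called a gene when it changed by more than 1.2-fold at an unadjusted p under 0.05, and by that criterion 10 of the 56 tested member probes were called, against a background of 8.29% of all tested probes. Of these, 8 probes of 7 genes were lower in the posterior lobe (background 5.00%) and 2 were higher (background 3.30%). One of the 8, a Bmp4 probe, passed the detection filter only through the anterior arrays. With detection required on all 4 arrays, 7 of 55 were called lower and 2 higher (background 7.93% in both directions together). None had an adjusted p under 0.05 with limma over all tested probes (background 0.106%), while 10 had an unadjusted p under 0.05 in the same fit. The lowest limma adjusted p was 0.18, for that Bmp4 probe, which was well above background on the anterior arrays only. Among probes above background on all 4 arrays the lowest was 0.22, for Fgf7. With 1 array left out the counts changed, and not always in the same direction as the share over all probes. There were 18 called member probes when anterior replicate 1 was dropped (background 22.1%) and 6 when anterior replicate 2 was (background 9.17%). Each posterior array left out gave 5, against a background of 3.58% for replicate 1 and 3.80% for replicate 2. An adjusted p under 0.05 with limma was then reached by 7 member probes when anterior replicate 1 was dropped (background 12.0%), by 1 when anterior replicate 2 was (background 1.04%) and by 0 when a posterior array was. The methods' t-test called 2 member probes at its unadjusted threshold (background 3.41%) and 0 after adjustment. The median log2 difference of the member probes, posterior minus anterior, was -0.02, against 0.00 for all tested probes. The lobes did not overlap for 32 of the 56 probes (background 42.6%). The difference between lobes was smaller than that between the 2 anterior arrays for 31 of the 56, a count not made over all tested probes. Over the 21726 tested probes the replicate difference had an SD of 0.32 in the anterior and 0.20 in the posterior lobe. The count is therefore not read as a trait of the members.

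The promoters of 3 genes called lower in the posterior lobe are shown so that the base composition ahead of genes called in one direction can be compared. Each is the 250 bases before the start of the gene in RefSeq on GRCm38.p6, and capitals mark each CG dinucleotide, the site of DNA methylation in mammals. Bmp4 lies on the minus strand (chr14:46390670-46390919), Fgf7 on the plus strand (chr2:126034408-126034657) and Acvr1b on the plus strand (chr15:101173822-101174071).
Bmp4: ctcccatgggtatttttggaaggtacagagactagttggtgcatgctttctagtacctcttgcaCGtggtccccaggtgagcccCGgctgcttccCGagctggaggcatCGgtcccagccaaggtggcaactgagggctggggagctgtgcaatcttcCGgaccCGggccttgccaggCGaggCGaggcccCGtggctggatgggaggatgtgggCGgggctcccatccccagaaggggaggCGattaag
Fgf7: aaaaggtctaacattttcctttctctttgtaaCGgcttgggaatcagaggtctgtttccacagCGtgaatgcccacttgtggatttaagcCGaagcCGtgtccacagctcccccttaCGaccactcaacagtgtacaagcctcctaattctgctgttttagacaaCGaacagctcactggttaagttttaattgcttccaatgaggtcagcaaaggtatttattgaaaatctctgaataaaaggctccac
Acvr1b: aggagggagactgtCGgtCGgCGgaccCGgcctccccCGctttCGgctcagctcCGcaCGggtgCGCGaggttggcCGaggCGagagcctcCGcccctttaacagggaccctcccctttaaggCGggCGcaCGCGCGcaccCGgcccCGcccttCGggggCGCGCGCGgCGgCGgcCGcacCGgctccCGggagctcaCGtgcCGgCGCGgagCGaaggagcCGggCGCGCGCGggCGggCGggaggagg
The Acvr1b promoter held 42 CG dinucleotides and 78.8% G and C bases. The Bmp4 promoter held 11 with 63.2%, and that of Fgf7 held 6 with 43.6%. The median over 32851 RefSeq promoters of this length was 6 CG dinucleotides and 52.4% G and C bases. By G and C content Fgf7 lay below that median and Bmp4 and Acvr1b above it. By CG count Fgf7 lay at the median and the other 2 above it. Inha, also called lower, lay below it with 4. Fgf13, called lower as well, has several starts, and the windows before them held 2, 6, 31 and 33. No window was taken for Bmp1 and Fgf1, which were also called lower. On both strands, TATAAA (in 12.4% of all promoters), GGCGCC (9.59%), CAGCTG (13.0%) and GTCTAGAC (0.167%) were not among the letters of the 3 windows shown. The Fgf13 window with 2 CG dinucleotides held CAGCTG.

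**Figure D1:**
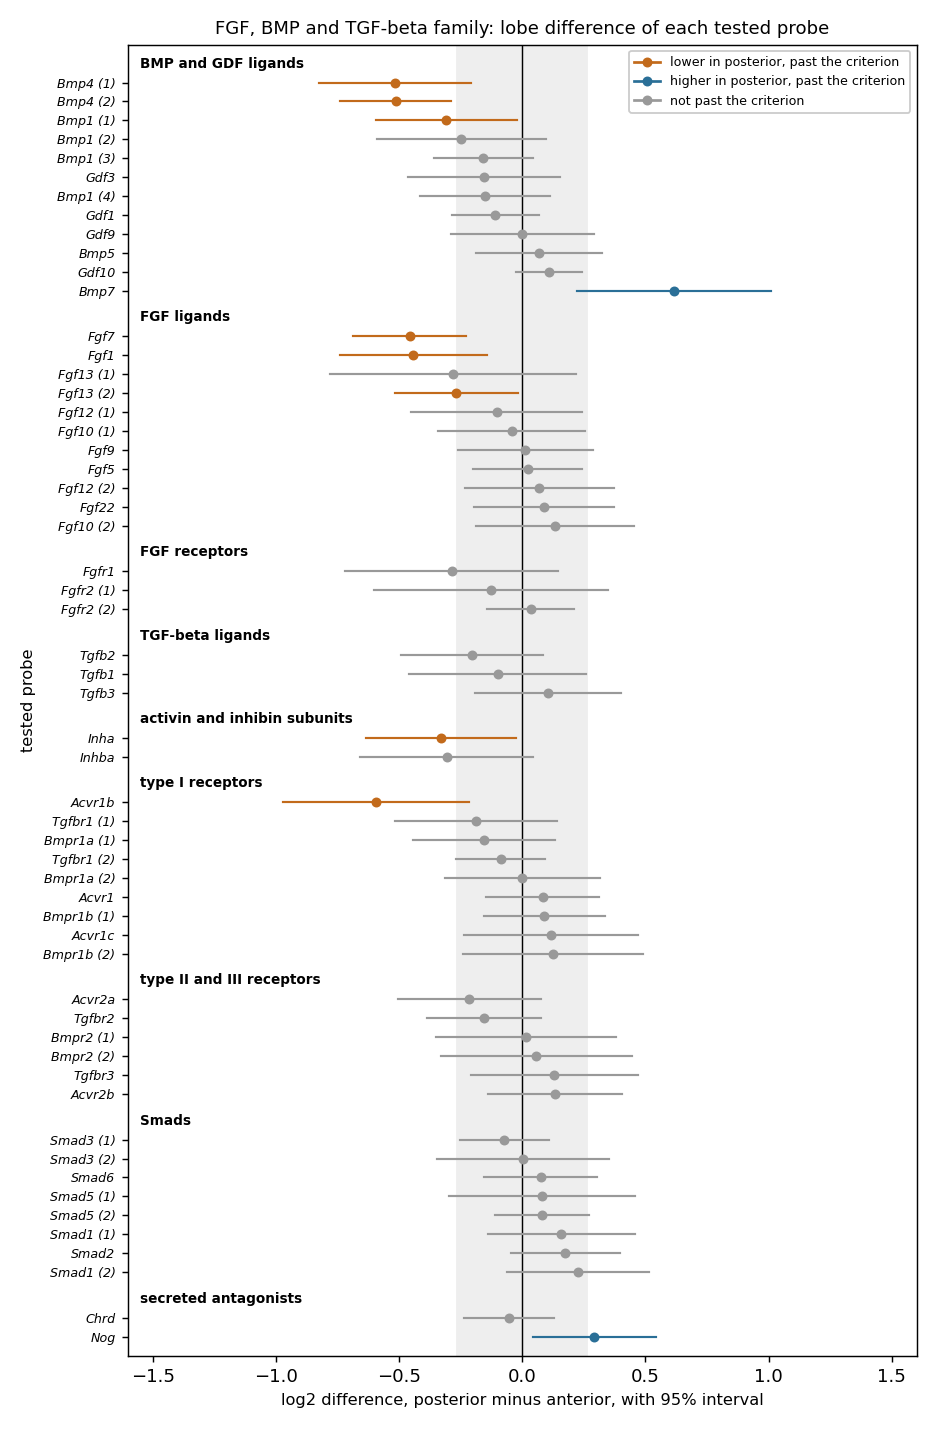
Log2 difference between lobes, posterior minus anterior, for each of the 56 tested member probes (points) with its 95% interval (lines), grouped by role; numbers in brackets tell apart the probes of 1 gene and the grey band spans a 1.2-fold change. The 8 probes called lower belong to Bmp4, Bmp1, Fgf7, Fgf1, Fgf13, Inha and Acvr1b, and Bmp7 has the largest difference above 0.

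Among the BMP and GDF ligands, leaving aside the protease Bmp1, 8 probes of 7 genes were tested, 2 were called lower and 1 higher. Bmp4, which in development patterns dorsal neural tissue, gave intensities of 1388 and 1248 on the anterior arrays against 979.4 and 839.5 on the posterior arrays. Both posterior arrays were below both anterior arrays, with a log2 difference of -0.52 (SE 0.13, unadjusted p = 0.0064, limma adjusted p = 0.29). A second Bmp4 probe gave 155.2 and 135.3 against 105.9 and 101.9. It was well above background on both anterior arrays and on neither posterior array, so its signal was at least 1.11-fold higher in the anterior lobe, with a measured difference of -0.51 (SE 0.091, limma adjusted p = 0.18) that was -0.82 after background correction. It was the only tested member probe not above background on all 4 arrays. Its detection scores were 0.971 and 0.979 against 0.847 and 0.807. Without posterior replicate 2 the first probe was no longer called (-0.38, unadjusted p = 0.064).

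Bmp7, a BMP of the group that signals through Acvr1 and the BMP type I receptors, ran the other way. A second Bmp7 probe was not well above background on any array and was not tested. It gave 96.5 and 92.8 on the anterior arrays and 77.2 and 91.6 on the posterior arrays. The tested Bmp7 probe gave 295.8 and 304.4 on the anterior arrays and 413.2 and 504.2 on the posterior arrays. Both posterior arrays were thus brighter than both anterior ones. The log2 difference was 0.62 (SE 0.16, unadjusted p = 0.0088, limma adjusted p = 0.32), and without posterior replicate 2 it was 0.49 and not called (unadjusted p = 0.081). Markers of some other cell types moved with the lobes as well. All 12 meningeal fibroblast genes were tested, and 10 of 17 probes were called higher in the posterior lobe (background 3.30%). Their summed intensities were 22869 to 23762 in the anterior and 30292 to 36385 in the posterior lobe. Of 11 oligodendrocyte and myelin genes, 10 were tested and 19 of 21 probes were called lower (background 5.00%). Their sums were 118137 to 137363 in the anterior and 82997 to 86434 in the posterior lobe, and Olig2 was not well above background. Few or no probes were called in other lists, with 0 of 12 for astroglia and Bergmann glia, 0 of 8 for microglia and 0 of 10 for Purkinje cells. For endothelium and pericytes 1 of 10 was called and for granule neurons 1 of 11, both higher. Choroid plexus markers summed to 1586 and 10684 in the anterior and to 5678 and 7989 in the posterior lobe, and Folr1 and Kl had no probe above background on at least 2 arrays. The 4 tested genes of that list did not run one way. Otx2 stood at 351.3 and 262.0 in the anterior and 4936 and 3689 in the posterior lobe and was called higher. The study names Otx2 among genes with a compartment pattern in the developing cerebellum, so sums that include it do not follow choroid plexus alone. Clic6 stood at 503.9 and 699.8 against 268.1 and 372.2 and was called lower. Ttr gave 599.9 and 9502 in the anterior and 325.9 and 3778 in the posterior lobe, so it was far brighter in replicate 2 of both lobes. The part of these cell types in the differences of the members was not tested, and in bulk tissue fewer cells of a type and less RNA per cell cannot be told apart.

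Bmp1 belongs to the members by name but is a metalloprotease that cleaves procollagen and chordin, not a ligand of the family. Its called probe gave 2879 and 3075 on the anterior arrays and 2360 and 2425 on the posterior arrays, with a log2 difference of -0.31 (SE 0.12, unadjusted p = 0.039, limma adjusted p = 0.46). The other 3 tested Bmp1 probes had differences of -0.25, -0.16 and -0.15, all in the same direction and not called. The called probe lost the criterion without anterior replicate 2 (-0.16, unadjusted p = 0.10), without posterior replicate 1 (-0.32, unadjusted p = 0.12) and without posterior replicate 2 (-0.29, unadjusted p = 0.15). Gdf10, a Bmp3-like ligand made by Bergmann glia, gave 15695 and 13661 in the anterior and 15518 and 16615 in the posterior lobe. Its lobes did not overlap after normalization, and its difference of 0.11 was not called (95% interval -0.03 to 0.24). Bmp2 and Gdf11, which are known as regulators of progenitor proliferation, were not well above background on any array.

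Of the FGFs that act through receptors, 7 probes of 6 genes were tested, and 2 were called, both lower in the posterior lobe. Fgf7, a ligand of the epithelial form of Fgfr2, gave 1620 and 1347 in the anterior lobe and 1027 and 1092 in the posterior lobe. All posterior values were below all anterior values, with a log2 difference of -0.46 (SE 0.094, unadjusted p = 0.0029, limma adjusted p = 0.22), and Fgf7 was called in all 14 other fits that tested it. Fgf1, which binds every FGF receptor, gave 975.3 and 902.8 against 624.0 and 741.5. The lobes did not overlap (-0.44, SE 0.12, unadjusted p = 0.011, limma adjusted p = 0.34), and without posterior replicate 1 the difference was -0.34 and not called (unadjusted p = 0.11).

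Fgf11 to Fgf14 stay inside the cell, where they bind voltage-gated sodium channels in place of FGF receptors. Of these, 4 probes of 2 genes were tested and 1 was called, also lower. The called probe of Fgf13 gave 8501 and 7671 in the anterior and 5971 and 7469 in the posterior lobe. Posterior replicate 2 lay close to the anterior arrays, and the difference was -0.27 (SE 0.10, unadjusted p = 0.039, limma adjusted p = 0.46), just past the 1.2-fold threshold. It was lost without posterior replicate 1 (-0.14, unadjusted p = 0.24) and without anterior replicate 2 (-0.23, unadjusted p = 0.048). A second Fgf13 probe had a difference of -0.28 with overlapping lobes (95% interval -0.78 to 0.22). The 2 tested Fgf12 probes differed in sign, at 0.07 and -0.10, and the lobes overlapped for both. The second was called without anterior replicate 2 (-0.27). Fgf14, which is mutated in a hereditary ataxia, was not well above background with any of its 3 probes.

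Fgf9, a ligand known from Bergmann glia development, gave 1014 and 783.7 in the anterior and 860.1 and 907.5 in the posterior lobe. The posterior values lay between the anterior ones (0.01, 95% interval -0.26 to 0.29). The 2 tested Fgf10 probes had differences of 0.13 and -0.04 with overlapping lobes. Fgf8, Fgf17 and Fgf18, which act from the isthmic organizer that patterns the cerebellar primordium, were not well above background on any array at this age, nor was Fgf2.

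**Figure D2:**
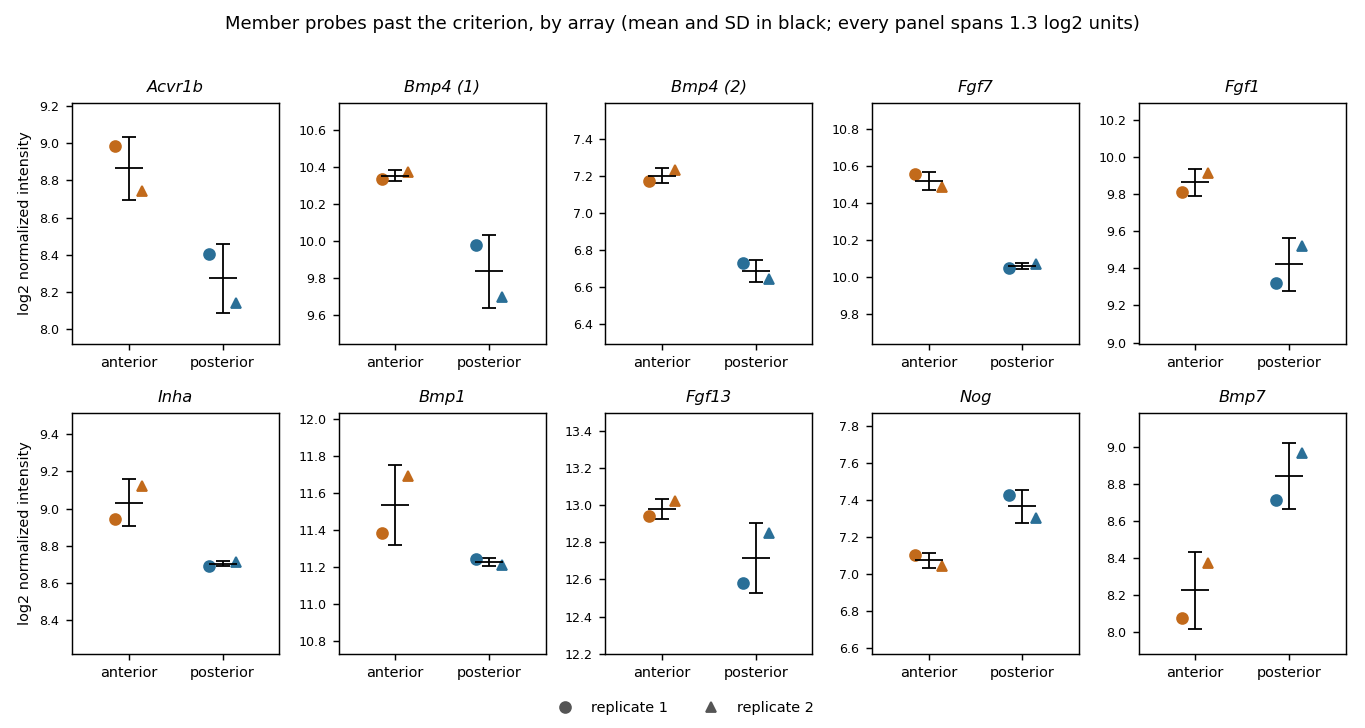
Normalized log2 intensity on each array (circles for replicate 1, triangles for replicate 2) for the 10 called member probes, with the mean and SD of each lobe in black. In each panel both arrays of one lobe lie on the same side of both arrays of the other, and the space between lobes is narrowest for Bmp1 and Fgf13.

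No FGF receptor was called among 3 tested probes of 2 genes. Fgfr1 gave 268.6 and 312.5 in the anterior and 232.9 and 239.9 in the posterior lobe. The posterior arrays were both lower, but the interval of the difference of -0.29 ran from -0.72 to 0.15. Without anterior replicate 1 it was called at -0.52, and without anterior replicate 2 it stood at -0.05. Fgfr2, whose epithelial form Fgf7 binds, had differences of 0.03 (95% interval -0.14 to 0.21) and -0.13 (95% interval -0.60 to 0.35) with its 2 tested probes. Which form of Fgfr2 these probes measure was not examined. The second probe stood at -0.39 without anterior replicate 1 and at 0.13 without anterior replicate 2. Fgfr3 had no tested probe. Its brighter probe gave 142.0 and 96.0 against 120.7 and 92.7, and passed the detection threshold on 1 array, with a score of 0.951 on anterior replicate 1.

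None of the 3 TGF-beta ligands was called. The largest difference was that of Tgfb2, at 875.0 and 761.0 in the anterior and 641.4 and 755.9 in the posterior lobe (-0.20, 95% interval -0.49 to 0.08). Before normalization posterior replicate 2 lay beside anterior replicate 2. After normalization both posterior arrays were lower, at log2 values of 9.37 and 9.55 against 9.66 and 9.67. Of the activin and inhibin subunits 2 were tested. Inha, the alpha subunit that turns an activin beta chain into inhibin, gave 537.5 and 518.4 in the anterior and 406.7 and 421.7 in the posterior lobe. Both posterior arrays were lower, by -0.33 on the log2 scale (SE 0.12, unadjusted p = 0.038, limma adjusted p = 0.46). The call was lost without anterior replicate 2 (-0.24, unadjusted p = 0.10), without posterior replicate 1 (-0.32, unadjusted p = 0.18) and without posterior replicate 2 (-0.34, unadjusted p = 0.16). Inhba, a beta subunit of activin, had a difference of -0.31 that was not called (95% interval -0.66 to 0.04).

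Among the type I receptors 9 probes of 6 genes were tested and 1 was called. This was Acvr1b, the activin receptor also called ALK4 that phosphorylates Smad2 and Smad3. Its other probes were not well above background on any array. The tested Acvr1b probe gave 554.7 and 394.0 in the anterior and 334.4 and 280.9 in the posterior lobe. The lobes did not overlap although the anterior arrays differed widely, and the log2 difference of -0.59 (SE 0.15, unadjusted p = 0.0086, limma adjusted p = 0.32) was the largest fall among the tested member probes. Without posterior replicate 2 it was -0.46 and not called (unadjusted p = 0.087).

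The BMP receptors did not pass the criterion. For Bmpr1a the probes had differences of -0.15 (95% interval -0.44 to 0.13) and 0.00 (95% interval -0.32 to 0.32), and for Bmpr1b 0.09 (95% interval -0.15 to 0.33) and 0.12 (95% interval -0.24 to 0.49). Acvr1, the type I receptor also known as ALK2, had a difference of 0.08 (95% interval -0.15 to 0.31). Of the type II and III receptors, 6 probes of 5 genes were tested. Acvr2a, an activin receptor, had the largest difference, at 153.4 and 153.6 in the anterior and 136.3 and 134.4 in the posterior lobe (-0.22, 95% interval -0.51 to 0.07). It was called without anterior replicate 1 (-0.34), stood at -0.09 without anterior replicate 2 and at -0.37 after background correction, not called. The BMP receptor Bmpr2 had differences of 0.01 and 0.06 with overlapping lobes.

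Of the Smads 8 probes of 5 genes were tested and none was called. Differences above 0 were found for 7 of the 8 probes (against 10985 of all 21726 tested probes), and the median was 0.08. Smad1, which carries the BMP signal, had the largest (0.23, 95% interval -0.06 to 0.51). This probe gave 1543 and 1124 in the anterior and 1458 and 1582 in the posterior lobe, and after normalization its lobes did not overlap. The other tested Smad1 probe stood at 0.16. Both were called without anterior replicate 1 (0.36 and 0.31) and stood at 0.10 and 0.01 without anterior replicate 2. For Smad5, a second BMP Smad, both probes stood at 0.08. The 2 probes of Smad3, which carries activin and TGF-beta signals, differed by -0.07 and 0.00.

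Of the secreted antagonists, Nog and Chrd were tested and Grem1 was not well above background. Nog, whose product noggin binds BMPs, gave 147.8 and 119.4 in the anterior and 172.8 and 159.9 in the posterior lobe. Both posterior arrays were brighter (0.29, SE 0.10, unadjusted p = 0.029, limma adjusted p = 0.43). After background correction the difference was 0.50, and it was not called without posterior replicate 1 (0.23, unadjusted p = 0.14) or without anterior replicate 2 (0.26, unadjusted p = 0.082). Chrd, which encodes chordin, gave 3659 and 3211 against 3122 and 3438, a difference of -0.06 (95% interval -0.24 to 0.13). After normalization both posterior arrays were below both anterior arrays for Chrd.

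Over the 56 tested probes the 95% interval reached from 0.13 to 0.50 on either side of the log2 difference, with a median of 0.29, which is more than the 0.26 of a 1.2-fold change. Each value of the 10 called probes came from 20 to 66 beads, with a standard error over beads of 1.92% to 5.39%. The 68 member probes that were not tested had intensities of 54.0 to 143.1, and 65 of them were well above background on no array. Just outside the detection threshold, with 1 array past it, were Fgf13, Fgfr3 and Inhbe probes.

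**Figure D3:**
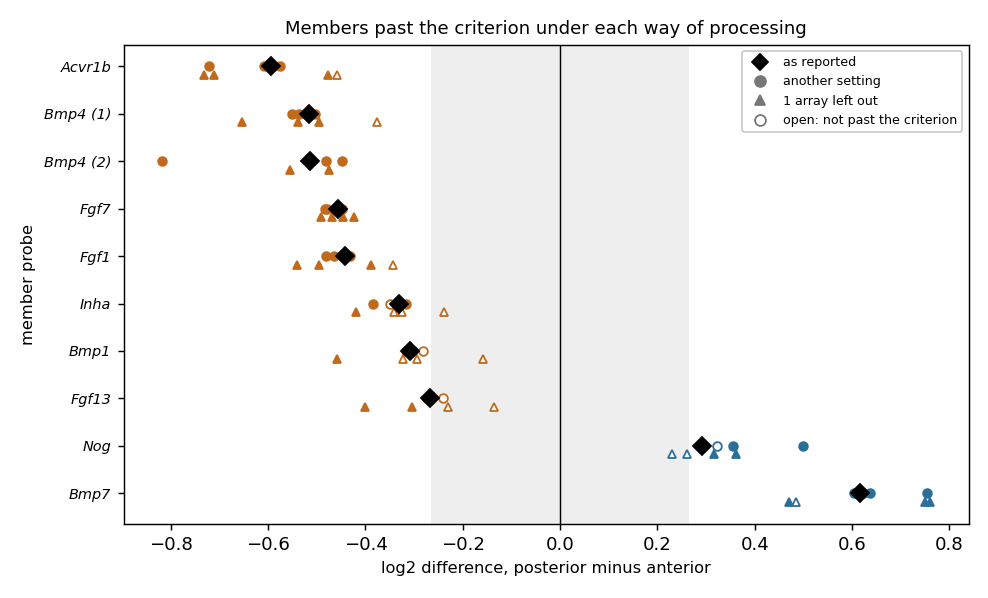
Log2 difference between lobes of the 10 called member probes as reported (diamonds), under other settings (circles) and with 1 array left out (triangles, drawn slightly lower), with open symbols where the criterion was not met; settings that change only the test lie under the diamond. Every value keeps its side of 0, and for Nog, Fgf13, Inha and Bmp1 some reach the grey band of a 1.2-fold change. All probes but Fgf7 and the dimmer Bmp4 probe lose the call in some of the fits that tested them.

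The direction of the 10 called probes was kept in every other fit that tested them, but this says little. All fits use the same arrays, and settings that change only the test or the filter leave the difference as it was. The lobes did not overlap for any of the 10, so leaving out 1 array could hardly change the direction. Of the other fits that tested each probe, Fgf7 was called in 14 of 14 and the dimmer Bmp4 probe in 10 of 10. The dimmer Bmp4 probe passed the detection filter only through the anterior arrays. It was not tested with a score over 0.99, with detection on all 4 arrays or with an anterior array left out. Its count is therefore not comparable with those of the other probes. The brighter Bmp4 probe, Bmp7, Fgf1 and Acvr1b were called in 12 of 14. Nog was called in 9 of 13, Inha in 9 of 14, and Fgf13 and Bmp1 in 8 of 14.

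Other genes of the same pathways were taken from 7 lists of 76 genes with 126 probes on the array, of which 72 probes of 51 genes were tested. By the criterion 14 were called (background 8.29%), 9 higher (background 3.30%) and 5 lower (background 5.00%) in the posterior lobe, and none had an adjusted p under 0.05 with limma (14 at an unadjusted p under 0.05). The count was 29 when anterior replicate 1 was left out (background 22.1%), 8 when posterior replicate 1 was (background 3.58%) and 4 when posterior replicate 2 was (background 3.80%). The median log2 difference of the 72 probes was 0.02. The feedback regulators and targets of FGF signalling moved in both directions, with 3 probes higher and 3 lower among 16 tested. All 3 probes of Etv1, an ETS transcription factor, were called lower, with differences of -0.64, -0.50 and -0.46, and their lowest limma adjusted p was 0.24. Its brightest probe gave 1226 and 1275 in the anterior and 833.5 and 749.1 in the posterior lobe. Spred2, an inhibitor of the MAP kinase cascade, gave 256.2 and 226.4 against 391.6 and 362.0, a difference of 0.66 (SE 0.12, limma adjusted p = 0.19). Both posterior arrays were above both anterior arrays for Spred2 and below them for Etv1. Etv5, a related ETS factor, stood at 0.34 and Dusp6, the phosphatase that switches off the kinase ERK, at 0.46 in their called probes. The other 2 tested probes of Dusp6, at 0.51 and 0.46, were not called, nor was the other probe of Etv5 at 0.36.

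Of the BMP targets 1 of 7 probes was called. Msx1, a homeobox gene induced by BMPs, gave 263.8 and 314.7 in the anterior and 422.2 and 547.2 in the posterior lobe (0.75, SE 0.21, limma adjusted p = 0.35). The Id genes, the usual readout of BMP signalling, were not called, and Id3 stood at 0.31 (unadjusted p = 0.051) and Id4 at -0.23 (95% interval -0.50 to 0.04). Among 14 probes of TGF-beta targets and Smad co-factors 2 were called, Ccn2, named CTGF on the array, at 0.80 and the matrix protein gene Tgfbi at 0.51. The Ccn2 probe gave 381.1 and 332.8 against 483.8 and 780.2, so its posterior arrays differed widely. All 8 tested probes for secreted binders of BMPs and activins, of 7 genes, had differences above 0 (against 10985 of all 21726 tested probes). Of these 8 probes 2 were called, Nbl1 at 0.49 and Fstl1 at 0.38. The BMP co-receptor Rgmb (-0.38) and the latent TGF-beta binding protein Ltbp3 (-0.65) were called lower with 1 probe each, and Flrt2, a membrane protein that binds FGF receptors, was called higher (0.49). A second Rgmb probe stood at -0.10, and the other 2 tested probes of Ltbp3 stood at -0.20 and 0.01, not called. The meningeal fibroblast genes that were brighter in the posterior lobe moved in the same direction as Msx1, Ccn2, Tgfbi, Nbl1 and Fstl1, and their part in these values was not tested.

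**Figure D4:**
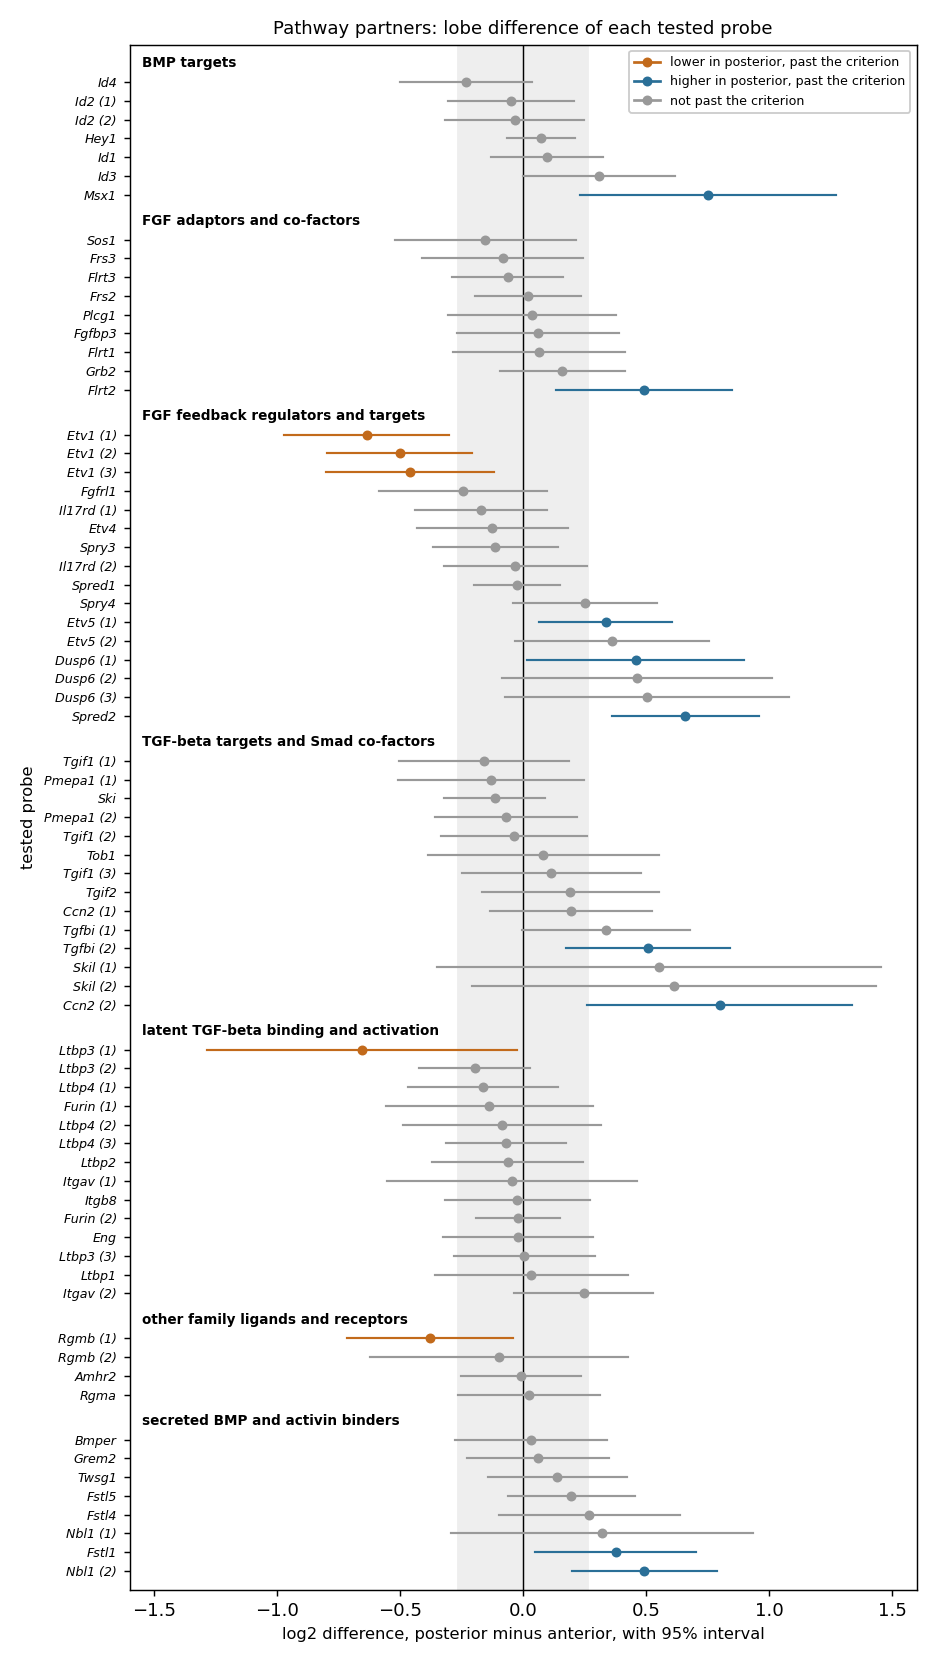
Log2 difference between lobes, posterior minus anterior, for each of the 72 tested probes of the pathway partner lists (points) with its 95% interval (lines); numbers in brackets tell apart the probes of 1 gene and the grey band spans a 1.2-fold change. The 3 Etv1 probes lie below 0, and Spred2, Dusp6 and Etv5 of the same list lie above it.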

How the data were processed

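RNA of 2 anterior and 2 posterior lobe samples was hybridized to 1 array each. The authors deposited the mean bead intensity, its SD over beads and the number of beads per probe, exported by Illumina's GenomeStudio without normalization or background subtraction, per the file headers. The deposited detection score is a fraction, 1 minus the detection p-value. Another 16 columns were not used. Without background subtraction, differences of dim probes are understated.

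In R 4.3.3 the 4 arrays were brought to a common distribution by quantile normalization, and values were set to at least 1 before taking log2, the floor and log base that the methods name. Probes with a score over 0.95 on at least 2 arrays were compared between lobes (posterior minus anterior) by limma 3.58.1, with lmFit and a trended eBayes, with Benjamini-Hochberg adjustment over all 21726 tested probes and no replicate block. SE and 95% intervals come from that fit. The fits were tested on simulated data. The study's criterion, over 1.2-fold at an unadjusted p below 0.05, used this fit. Where only 1 lobe was above background, a bound was set against the other lobe's signal, raised on each array to the dimmest signal above background where it was below that. The number of arrays limits the precision.

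Probes of 1 gene were kept apart. Of 77 member symbols 75 are RefSeq symbols of GRCm38.p6, and 76 are symbols or older names. Named are all called member probes, the largest difference in each role, probes above background in 1 lobe only, a list of members known in cerebellum biology, members whose probes differ in sign, and up to 4 called probes of each partner list. Etv5, Dusp6, Inhba, Otx2, Clic6, Ttr, Id3, Id4, Grem1, Inhbe and the uncalled partner probes were added after their values were seen, as were the markers named beside a list. The members and lists were chosen with earlier results of these data known.

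The alternatives were neqc (offset 16) for the background, a common 75th percentile, cyclic loess or no normalization, no detection filter, detection on all 4 arrays, a score over 0.99, the methods' t-test, untrended eBayes, a replicate block, leaving out each array in turn, 1 probe per gene and a 1.5-fold threshold.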

Additional observations from a re-analysis of the deposited data

How the results depend on the processing

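Of 10 member probes past the criterion, 2 (the dimmer Bmp4 probe and Fgf7) passed with the methods' t-test (3.41% of all probes). With a 1.5-fold threshold 2 passed (Bmp7 and Acvr1b). Leaving out 1 array gave 5 to 18 probes. There were 18 when anterior replicate 1 was dropped, 6 when anterior replicate 2 was and 5 with either posterior array left out. That fit assumes that the lone array of a lobe varies like the other lobe. The remaining settings gave 7 to 11. The count past the limma adjusted p was 0, and 0 to 7 with 1 array left out. It was 7 without anterior replicate 1 (12.0% of all probes) and 1 without anterior replicate 2 (1.04%). Of the partner probes, 14 passed the criterion, 3 with the t-test and 4 to 29 with 1 array left out, with 29 without anterior replicate 1, 8 without posterior replicate 1 and 4 without posterior replicate 2. The labels do not say that a replicate number marks the same animal or batch. Replicate 1 minus 2 correlated between lobes with r = 0.46 across the 21726 tested probes, which are not independent replicates. With the replicate block, 11 member and 22 partner probes passed the criterion. In that fit 3 member probes had a limma adjusted p under 0.05, the dimmer Bmp4 probe (0.025), Bmp7 (0.027) and Acvr1b (0.033). Of all probes, 13.0% passed the criterion and 2.71% the adjusted p. The brighter Bmp4 probe stood at a limma adjusted p of 0.052 with the block. Over 481 values of 35 named probes, 424 kept direction and side of the criterion, 29 lost and 6 gained the call (Fgfr1, an Fgfr2 probe, Acvr2a and both Smad1 probes without anterior replicate 1, an Fgf12 probe without anterior replicate 2), and 22 changed sign, none of them called. After background correction with neqc the dimmer Bmp4 probe stood at -0.82, Nog at 0.50 and Acvr2a at -0.37. With no normalization Fgf9 stood at -0.013, Bmpr1a at -0.020 and Smad3 at -0.020, and at a common 75th percentile Fgf10 stood at 0.0061. With 1 array left out, the log2 difference ran from -0.15 to 0.067 for Fgf10, from -0.011 to 0.15 and from -0.27 to 0.069 for the Fgf12 probes, from -0.071 to 0.096 for Fgf9, from -0.025 to 0.096 and from -0.39 to 0.13 for the Fgfr2 probes, from -0.095 to 0.098 for Bmpr1a, from -0.040 to 0.29 for Bmpr1b, from -0.17 to 0.20 and from -0.096 to 0.21 for the Bmpr2 probes, from -0.17 to 0.17 for Smad3 and from -0.084 to 0.24 for Smad5. The cause of these changes was not tested. Signal over background limits the 68 member probes that were not tested.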
